A study of Mus musculus with 7 samples.

Results

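The lung of mice that overexpress EZH2 and that the labels call normal was compared with wild-type lung by RNA sequencing. The comparison uses 4 of the 7 mouse libraries of the series: both titled EZH2OE normal lung (genotype EZH2 overexpression, tissue normal lung; here OE normal lung 1 and 2) and both titled WT lung (genotype wild type, tissue normal lung; here WT lung 1 and 2). The members were chosen by these titles alone. The other 3 libraries are lung tumors with the EZH2 overexpression genotype, and their values are given only beside those of the 4 lungs. Strain, age, sex, the promoter that drives EZH2 and whether replicates are separate animals are not stated in the labels used here, so p-values measure the spread between these samples, which may be partly technical. The growth text in the labels describes cultured tumor nodules and human cell lines, while the source of every library is given as lung tissue.

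EZH2 is the catalytic subunit of Polycomb repressive complex 2 (PRC2), which places methyl groups on lysine 27 of histone H3 and keeps many developmental genes silent. The core of the complex also holds EED and SUZ12, and accessory subunits such as JARID2 and PHF1 guide it to its targets. Whole lung is a mixture of alveolar and airway epithelium, endothelium, stroma, smooth muscle and resident or circulating blood cells. In such a bulk sample, fewer cells of a type and less RNA per cell cannot be told apart.

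All 4 lungs carried the markers of lung. Sftpc, the surfactant protein made by alveolar type 2 cells, was between 10578 and 15915 FPKM (fragments per kilobase of transcript, scaled to the size of the library), and Ager, a marker of the flat alveolar type 1 cells, was between 774 and 1414 FPKM. Cyp2f2, made by airway club cells, was between 1093 and 1619 FPKM, while the club cell gene Scgb1a1 was listed at 0 in all 4. In the tumors Scgb1a1 was listed at 2227, 56.3 and 1095 FPKM. Whether its listed 0 means that the transcript was absent was not tested. Each lung had between 13203 and 13567 genes at 1 FPKM or more. Read totals are not in the files; the spacing of low values gave relative depths of 0.819 and 1.28 for OE normal lung 1 and 2 and 0.937 for WT lung 2, with WT lung 1 set to 1. Small RNA genes took 5.80% and 9.80% of all FPKM of the OE normal lungs but 16.6% and 16.7% in the WT lungs. OE normal lung 2 had Xist at 63.6 FPKM and the Y-linked Eif2s3y at 0.0903 FPKM, whereas the other 3 lungs had Xist at 0.131 to 0.816 FPKM and Eif2s3y at 27.4 to 29.8 FPKM, so the OE normal lungs differed in sex and both WT lungs were male. Across the tested genes, log2 values of the OE normal lungs correlated with each other at r = 0.947 and those of the WT lungs at r = 0.971. OE normal lung 1 correlated with WT lung 1 at r = 0.950, above its correlation with OE normal lung 2. These are correlations across genes, which are not independent replicates.

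Ezh2 was higher in both OE normal lungs. It stood at 10.2 and 11.5 FPKM in OE normal lung 1 and 2 and at 3.72 and 2.58 FPKM in WT lung 1 and 2. The groups did not overlap, and the means were 10.8 ± 0.95 and 3.15 ± 0.81 FPKM (SD, n = 2 each), a 3.44-fold difference. On the log2(FPKM + 1) scale, which understates differences of low genes, the difference was 1.53 (SE 0.17, limma adjusted p = 0.121), which did not pass the threshold of 0.05. An exact two-sided permutation test gave p = 0.33, the smallest value that 2 against 2 samples allow. The 3 tumors had 8.48, 23.5 and 22.6 FPKM. The files do not say whether fragments from the introduced EZH2 were counted with the mouse gene.

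Of the other PRC2 genes, Jarid2, which recruits the complex, was at 7.68 and 7.69 FPKM in the OE normal lungs, against 4.79 and 4.87 FPKM in the WT lungs (log2 difference 0.57, SE 0.09, limma adjusted p = 0.123). Phf1, an accessory subunit that binds methylated histone H3, was lower, at 36.2 and 35.5 against 41.6 and 43.2 FPKM. The core subunit genes Eed (12.1 and 13.1 against 13.3 and 11.5 FPKM) and Suz12 (13.7 and 15.5 against 14.2 and 13.5 FPKM) overlapped between the groups. The same was true of the second methyltransferase gene Ezh1 (18.1 and 18.5 against 18.4 and 20.3 FPKM). In all, 4 of the 11 PRC2 genes tested were higher in both OE normal lungs than in both WT lungs and 1 was lower, while 29.3% and 23.5% of all genes tested were separated in these directions (52.8% in either). The median log2 difference of the 11 was 0.05, beside 0.02 over all genes.

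**Figure D1:**
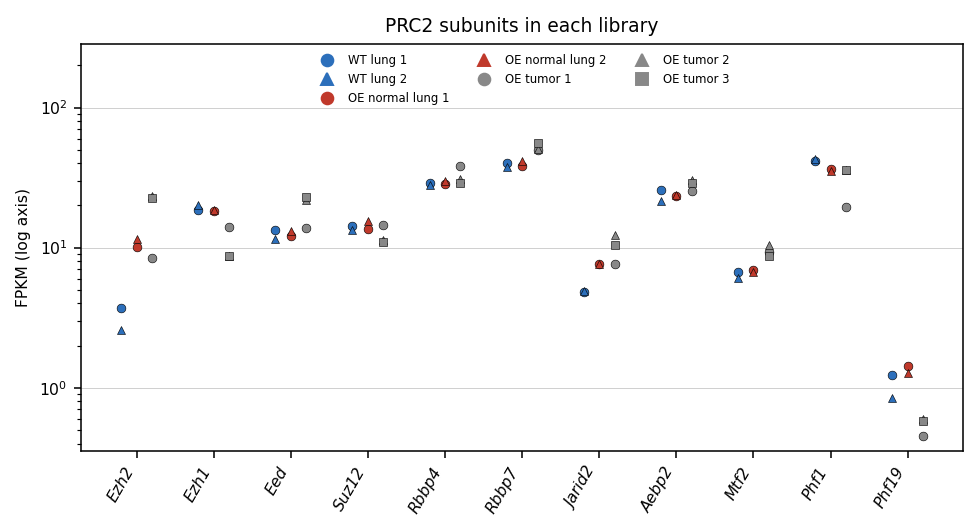
FPKM (log axis) of the 11 tested PRC2 genes in each library, WT lungs in blue, OE normal lungs in red and tumors in gray. Ezh2 and Jarid2 separate the 2 lung groups by the widest margin, and the lung points of Eed, Suz12 and Ezh1 overlap between the groups.

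A total of 13588 genes reached 1 FPKM in 2 or more of the 4 lungs and were tested. Of these, 3 (0.0221%) passed an adjusted p of 0.05, 1 higher (0.00736%) and 2 lower (0.0147%) in OE normal lung, and all 3 encode small RNAs. Snora70, a small nucleolar RNA, was at 48.1 and 64.9 FPKM in the OE normal lungs but listed at 0 in both WT lungs (limma adjusted p = 0.0172). Snora61, another small nucleolar RNA, was listed at 0 in both OE normal lungs and stood at 4595 and 2298 FPKM in the WT lungs (limma adjusted p = 0.0172). The microRNA gene Mir5121 was listed at 0 in both OE normal lungs and stood at 1115 and 548 FPKM in the WT lungs (limma adjusted p = 0.0290). In the tumors, Snora61 was listed at 2743, 7062 and 0 FPKM and Mir5121 at 0, 0 and 670 FPKM. A listed 0 for these genes thus also came and went among tumors of the same genotype. Snora70 was at 104, 21.0 and 52.0 FPKM in the tumors. None of these 3 calls remained when all genes were tested without a minimum level. Nor did Snora70 pass without WT lung 1 or WT lung 2 (limma adjusted p = 0.111 and 0.112), and Snora61 (0.158 and 0.0986) and Mir5121 (0.158 and 0.112) missed the threshold without OE normal lung 1 or OE normal lung 2. No protein-coding gene passed: the smallest adjusted p outside the small RNA genes was 0.0950. At an unadjusted p under 0.05 there were 2443 genes (18.0%), 1439 higher (10.6%) and 1004 lower (7.39%). Log2 differences had a median SE of 0.12. What follows therefore gives levels, and "higher" or "lower" means above or below in both OE normal lungs against both WT lungs.

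The genes below, outside the small RNA genes, were among those with the smallest unadjusted p that were higher in OE normal lung without overlap and had a mean there of at least 5 FPKM. Clec12a, an inhibitory lectin receptor of myeloid cells, was at 10.4 and 9.81 FPKM in the OE normal lungs, against 2.85 and 2.90 FPKM in the WT lungs (log2 difference 1.52, SE 0.09, limma adjusted p = 0.0950). Cyp4f18, a leukotriene-metabolizing enzyme of neutrophils, was at 14.8 and 15.5 against 2.73 and 1.93 FPKM. These genes were 3.51-fold and 6.50-fold higher. A choice by the smallest p favors genes whose replicates lie close together. Pld4 (45.7 and 50.6 against 11.9 and 9.31 FPKM), an endosomal nuclease, followed by p. Pycard, the inflammasome adaptor ASC, was at 8.44 and 9.03 against 2.83 and 3.00 FPKM. Cd274, which encodes the immune checkpoint ligand PD-L1, was at 15.3 and 16.2 FPKM in the OE normal lungs, against 5.28 and 4.29 FPKM in the WT lungs, 3.30-fold higher (log2 difference 1.54, SE 0.12, limma adjusted p = 0.121). The myeloid receptor gene Sirpa, the monocyte chemokine receptor gene Ccr2 and the signaling adaptor gene Hcst were also among them, at 2.08-fold, 2.72-fold and 2.30-fold higher.

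Among the genes lower in OE normal lung, Bcl2l1, which encodes the anti-apoptotic protein BCL-XL, was at 42.7 and 45.6 FPKM in the OE normal lungs, against 117 and 103 FPKM in the WT lungs. The difference was 2.50-fold (log2 difference -1.30, SE 0.10, limma adjusted p = 0.121), and the tumors, at 100 to 135 FPKM, were near the WT lungs. Thbs1, the matrix glycoprotein thrombospondin 1, was at 21.8 and 25.5 against 53.4 and 56.6 FPKM. Rapgef3, which encodes the cyclic AMP sensor EPAC1, was at 19.2 and 18.4 against 34.3 and 33.6 FPKM. Both were lower with little spread in either group, which a choice by the smallest p favors. The other genes named by this rule were at lower levels: 9930012K11Rik (4.56 and 4.61 against 15.7 and 16.7 FPKM), Pianp (0.75 and 0.971 against 8.11 and 6.82 FPKM), Krtap17-1 (0.864 and 0.998 against 5.33 and 5.54 FPKM), Rprml (1.84 and 1.61 against 7.48 and 9.31 FPKM) and Gbp2b, described with its family below. None of these genes passed the adjusted threshold.

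**Figure D2:**
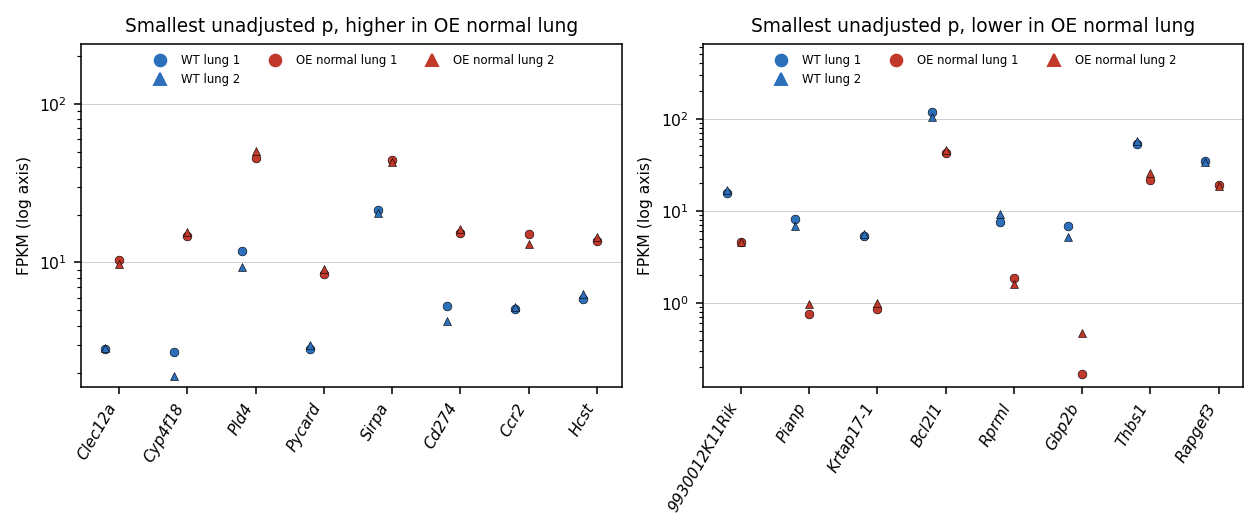
FPKM (log axis) of 8 higher and 8 lower genes with the smallest unadjusted p outside the 3 calls, one symbol per library. In each gene the 2 OE normal lungs (red) do not overlap the 2 WT lungs (blue), which is part of how the genes were chosen.

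Gene lists for cell types and pathways were then described by their counts and medians. No list below had a member past the adjusted threshold. Over all genes tested, 29.3% were higher without overlap and 23.5% were lower, 52.8% in either direction. Counts of list members that were higher or lower stand beside these shares. A gene under 1 FPKM in both lungs of 1 group was tested only if both lungs of the other group reached that level. Its separation was then set by the minimum level, and such genes are kept in the counts and in the shares. Genes of interferon response, MHC class I and II, neutrophils, B cells, T and NK cells and macrophages had medians of 0.66 to 1.82, beside 0.02 over all genes, and genes of alveolar type 1 cells, smooth muscle and glucocorticoid response had medians of -0.68 to -0.62. With the lowest and highest 5% of genes left out, all log2 differences ran from -0.43 to 0.81.

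**Figure D3:**
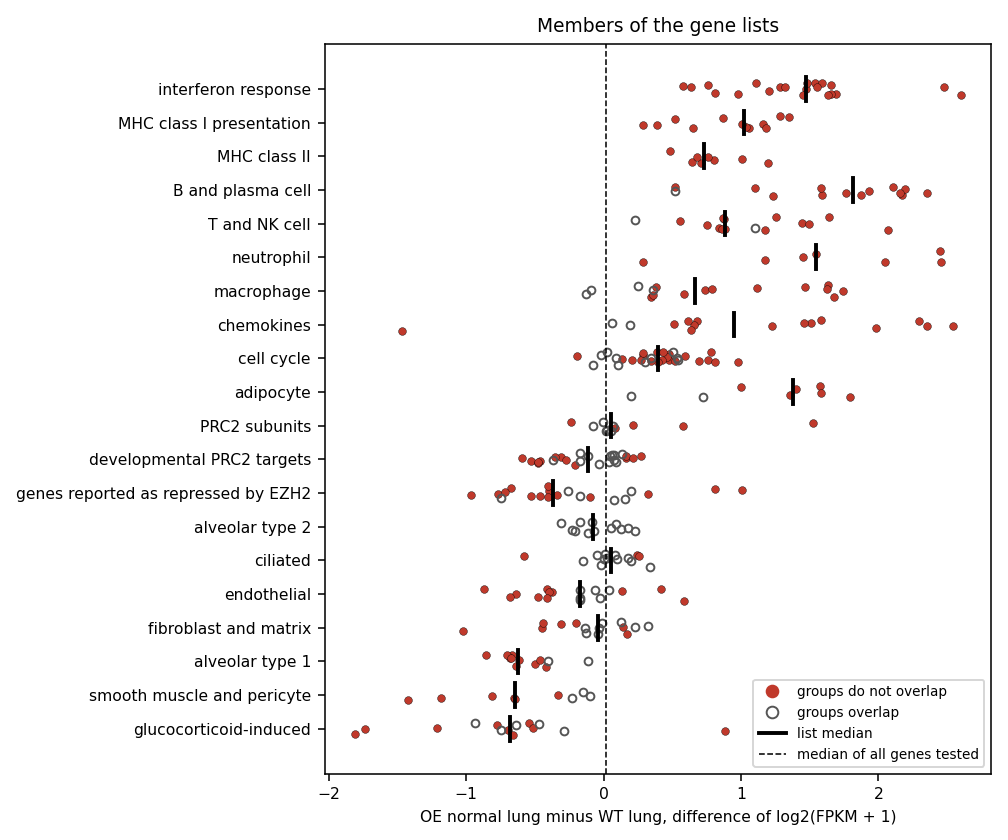
Log2 difference between OE normal and WT lung for each tested member of 20 gene lists. Filled points are genes whose groups do not overlap, open points overlap, black bars are list medians and the dashed line is the median of all genes tested (0.02). The interferon, MHC class I and MHC class II lists have filled points only, all to the right of the line.

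Interferon-induced genes were higher as a group. Interferons signal through JAK kinases to transcription factors that bind the interferon-stimulated response element (ISRE) in the promoters of antiviral genes. All 21 tested interferon response genes were higher (29.3% of all genes tested). All 21 had an unadjusted p under 0.05 (10.6% of all genes tested were higher at that level). Of these, Rsad2, Oas3 and Mx1 were under 1 FPKM in both WT lungs. They passed the minimum level only through the OE normal lungs, so their separation was set by it. The median log2 difference of the 21 was 1.47, and limma adjusted p ran from 0.121 for Oas1a to 0.219 for Igtp. Oas1a, a sensor that makes the RNase L activator from ATP, was at 12.3 and 10.1 FPKM in the OE normal lungs, against 3.16 and 2.59 FPKM in the WT lungs. Usp18, which removes the ubiquitin-like ISG15 and dampens interferon signaling, was at 17.7 and 17.5 against 9.80 and 9.41 FPKM. Irf7, the transcription factor that amplifies type I interferon, was at 31.7 and 20.8 against 9.17 and 6.71 FPKM. No WT lung reached an OE normal lung in any of these.

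The 2 OE normal lungs did not show the same profile within the list. Isg15 was at 29.0 FPKM in OE normal lung 1 but 18.3 FPKM in OE normal lung 2, against 8.39 and 4.93 FPKM in the WT lungs. Cxcl10, a chemokine strongly induced by interferon gamma, was at 6.86 and 26.1 against 2.38 and 0.714 FPKM. OE normal lung 1 had the higher value in 15 of the 21 genes and OE normal lung 2 in 6, and WT lung 1 was above WT lung 2 in 19. The list median was 1.53 without OE normal lung 2, the library of the other sex, and 1.30 without OE normal lung 1. OE normal lung had the highest mean of the 3 groups in 20 of the 21, and in 20 all 3 tumors were below both OE normal lungs. Summed over the list, FPKM were 419 and 435 in the OE normal lungs, 173 and 141 in the WT lungs and 51.4 to 67.6 in the tumors.

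Promoters of these genes are shown because the list shares a known response element. RefSeq promoters (GRCm38.p6, 250 bases before to 50 after the start) were found for 16 of the 21 genes, and 11 of the 16 (68.8%) held the ISRE core, searched on both strands as 2 copies of GAAA with any 2 bases between them, against 3.99% of the 27025 genes with a promoter in that table. The 4 below are the interferon genes holding this core with the smallest unadjusted p. Capitals mark the ISRE core as it reads on the strand of the gene, merged where matches overlap.
Oas1a, chr5:120907476-120907775, minus strand: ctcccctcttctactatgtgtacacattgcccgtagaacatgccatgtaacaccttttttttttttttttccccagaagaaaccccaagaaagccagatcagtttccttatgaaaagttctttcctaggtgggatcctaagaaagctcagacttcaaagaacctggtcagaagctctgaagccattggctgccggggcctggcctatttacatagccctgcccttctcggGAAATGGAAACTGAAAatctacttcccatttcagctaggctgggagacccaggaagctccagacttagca
Ifit1, chr19:34640639-34640938, plus strand: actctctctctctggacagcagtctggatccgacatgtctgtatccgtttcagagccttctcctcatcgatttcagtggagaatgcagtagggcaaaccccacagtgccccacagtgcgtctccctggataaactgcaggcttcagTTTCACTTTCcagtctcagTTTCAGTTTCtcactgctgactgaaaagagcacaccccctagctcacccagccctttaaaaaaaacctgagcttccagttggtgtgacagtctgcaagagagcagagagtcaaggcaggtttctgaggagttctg
Rsad2, chr12:26456403-26456702, minus strand: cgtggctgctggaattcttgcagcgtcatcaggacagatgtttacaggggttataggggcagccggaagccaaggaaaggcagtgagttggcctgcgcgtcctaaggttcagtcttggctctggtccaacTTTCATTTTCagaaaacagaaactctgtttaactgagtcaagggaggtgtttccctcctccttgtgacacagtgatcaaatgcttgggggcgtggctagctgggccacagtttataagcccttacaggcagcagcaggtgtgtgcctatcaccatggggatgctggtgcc
Irgm1, chr11:48871371-48871670, minus strand: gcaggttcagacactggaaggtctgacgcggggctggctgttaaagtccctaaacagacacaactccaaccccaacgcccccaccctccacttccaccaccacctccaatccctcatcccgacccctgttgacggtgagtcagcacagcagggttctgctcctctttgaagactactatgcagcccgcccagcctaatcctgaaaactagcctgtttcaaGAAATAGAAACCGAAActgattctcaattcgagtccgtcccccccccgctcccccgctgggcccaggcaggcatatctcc
In Oas1a and Irgm1, 2 overlapping matches lie just before the start, the first beginning at position -20 and -30, respectively. In Ifit1 the 2 matches are separate and on the opposite strand, the first beginning at position -104, and Rsad2 has 1 match at position -120. Ifit1, an RNA-binding antiviral protein, was at 15.5 and 11.7 FPKM in the OE normal lungs, against 4.63 and 3.42 FPKM in the WT lungs. Rsad2, the antiviral enzyme viperin, was at 5.02 and 3.02 against 0.703 and 0.44 FPKM, and Irgm1, a GTPase of cell-autonomous immunity, at 28.0 and 33.6 against 15.6 and 11.9 FPKM. Other searches used the same windows. The interferon gamma-activated site was in 1 of the same 16 genes (6.25%), against 1.35% of all genes. The ISRE core was in 2 of 10 MHC class I genes (20%). A glucocorticoid response element was in 2 of 13 glucocorticoid-induced genes (15.4%), against 0.537% of all genes. A match is a description of the bases in this window only.

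The guanylate-binding proteins, GTPases that attack vacuoles of intracellular pathogens, are induced by interferon gamma and lie in clusters of similar genes. Of 11 tested family members, 10 were higher in OE normal lung and Gbp2b alone was lower (29.3% and 23.5% of all genes tested). Gbp2 was at 41.1 and 64.6 FPKM in the OE normal lungs, against 21.1 and 15.1 FPKM in the WT lungs. Gbp3 was at 23.2 and 30.4 against 9.53 and 6.58 FPKM, and Gbp6 at 11.3 and 19 against 4.78 and 2.33 FPKM. Gbp2b was at 0.169 and 0.466 FPKM in the OE normal lungs, against 6.84 and 5.18 FPKM in the WT lungs, with 1.52, 1.19 and 1.94 FPKM in the tumors (log2 difference -2.41, SE 0.20, limma adjusted p = 0.121). In both OE normal lungs it was thus below all other libraries while its relatives were above the WT lungs. Near-identical copies can share reads, so the division of reads among Gbp genes is uncertain.

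**Figure D4:**
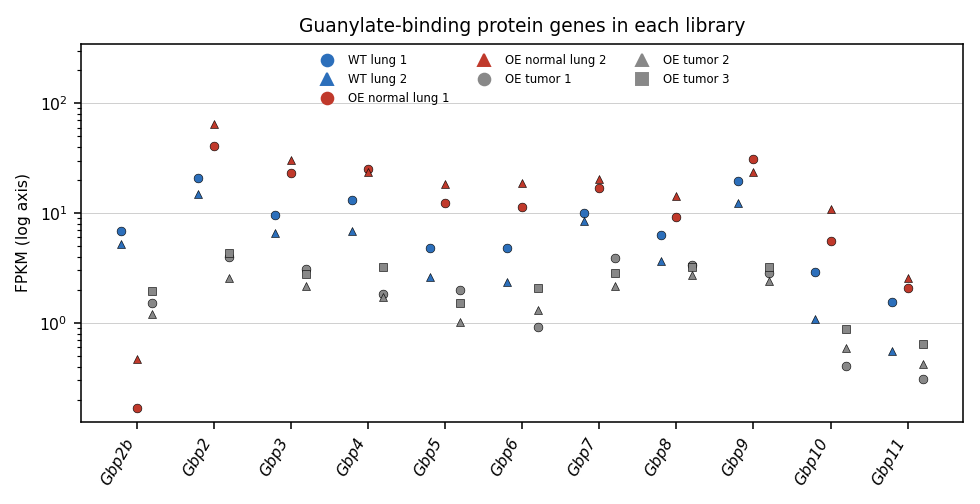
FPKM (log axis) of the 11 tested guanylate-binding protein genes in each library. In 10 genes the OE normal lungs (red) lie above the WT lungs (blue); in Gbp2b, at the left, they lie below both.

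Antigen presentation genes were higher in the same lungs. MHC class I molecules show peptides made by the proteasome to CD8 T cells, and NLRC5 drives their transcription. All 12 class I genes tested were higher (29.3% of all genes tested), with a median log2 difference of 1.02. All 12 had an unadjusted p under 0.05 (10.6% of all genes tested were higher at that level). H2-T23, a non-classical class I gene, was at 214 and 242 FPKM in the OE normal lungs, against 99.3 and 101 FPKM in the WT lungs (log2 difference 1.18, SE 0.10, limma adjusted p = 0.121). B2m, the shared light chain, was at 1838 and 2231 against 1216 and 774 FPKM, and Nlrc5 at 11.4 and 14.8 against 5.97 and 3.35 FPKM. Psmb10, an immunoproteasome subunit, differed less, at 58.2 and 58.5 against 45.3 and 43.5 FPKM. WT lung 2 was the lower WT lung in 11 of the 12 genes, and without it the list median was 0.71. The median was 0.85 without OE normal lung 2. All 3 tumors were below both OE normal lungs in all 12 genes.

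MHC class II genes, which present antigen in professional antigen-presenting cells, were all 8 higher (29.3% of all genes tested), with a median log2 difference of 0.73. Of the 8, 2 had an unadjusted p under 0.05, where 10.6% of all genes tested were higher at that level. Ciita, the class II transactivator, was at 11.3 and 14.7 FPKM in the OE normal lungs, against 7.65 and 3.25 FPKM in the WT lungs. H2-Oa, a class II chaperone subunit, was at 11.4 and 12.7 against 7.28 and 4.08 FPKM, and Cd74, the invariant chain, at 1366 and 1811 against 1255 and 689 FPKM. OE normal lung 1 lay close to WT lung 1 in Cd74, and the wide distance was to WT lung 2. Without WT lung 2 the list median was 0.34, and without OE normal lung 2 it was 0.48. MHC genes have near copies, and reads may have been divided among them.

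Most leukocyte marker lists had more members higher than lower in OE normal lung, as did red cell genes, and the lineages differed between its libraries. Of 16 macrophage genes, 12 were higher and none lower (29.3% and 23.5% of all genes tested), with a median log2 difference of 0.66. Cd68, a lysosomal glycoprotein of macrophages, was at 34.3 and 34.0 FPKM in the OE normal lungs, against 12.2 and 8.19 FPKM in the WT lungs (log2 difference 1.67, SE 0.19, limma adjusted p = 0.121). Emr1, which encodes the F4/80 antigen, was at 12.3 and 12.5 against 4.18 and 2.60 FPKM. All 7 tested neutrophil genes were higher (29.3% of all genes tested), with a median of 1.55. OE normal lung 1 had the higher value in 6 of them. S100a8, an abundant calcium-binding protein of neutrophils, was at 92.0 FPKM in OE normal lung 1 but 24.0 FPKM in OE normal lung 2, against 7.91 and 7.71 FPKM in the WT lungs. Its partner S100a9 was at 101 and 25.9 against 11.4 and 6.44 FPKM. Ltf, a secondary granule protein, ran the other way within the group, at 9.18 and 16.5 against 3.88 and 1.13 FPKM. The neutrophil median was 2.14 without OE normal lung 2 and 1.01 without OE normal lung 1, and S100a8 passed the threshold only without OE normal lung 2 (log2 difference 3.40, limma adjusted p = 0.0369).

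B cell genes showed the reverse order of libraries. Of 14 B and plasma cell genes, 13 were higher (29.3% of all genes tested), with a median log2 difference of 1.82. OE normal lung 2 had the higher value in 12 of the 14. Ms4a1, which encodes CD20, was at 14.5 FPKM in OE normal lung 1 but 105 FPKM in OE normal lung 2, against 9.15 and 5.21 FPKM in the WT lungs. Cd79a, a chain of the B cell receptor complex, was at 38.7 and 144 against 23.6 and 10.5 FPKM. Cd22, an inhibitory B cell receptor, was at 14.4 and 23 against 7.31 and 2.85 FPKM, and Fcrla at 9.24 and 21.3 against 5.03 and 1.83 FPKM. WT lung 1 was above WT lung 2 in 13 of the 14. The median was 1.18 without OE normal lung 2. Summed over the list, FPKM were 607 and 1002 in the OE normal lungs and 423 and 150 in the WT lungs.

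Of 15 T and NK cell genes, 13 were higher (29.3% of all genes tested), with a median log2 difference of 0.89. Thy1 was at 16.7 and 22.4 FPKM in the OE normal lungs, against 11 and 9.42 FPKM in the WT lungs. Ccl5, a chemokine of activated T and NK cells, was at 81.9 and 162 against 39.1 and 18.1 FPKM, and Cd8a at 4.63 and 4.35 against 1.62 and 0.561 FPKM. The cytotoxic granule gene Gzmb was at 2.82 and 2.37 against 0.857 and 1.05 FPKM. Of 16 chemokine genes, 13 were higher and 1 lower (29.3% and 23.5% of all genes tested). Ccl4, a macrophage inflammatory protein, was at 6.35 and 9.80 against 1.07 and 0.589 FPKM, a 9.73-fold difference. Cxcl13, which draws B cells into follicles, was at 18.3 and 110 against 8.93 and 7.28 FPKM, so that most of its excess was in OE normal lung 2. Cxcl12 differed less, at 80.5 and 82.1 against 55.1 and 58.5 FPKM. The 1 lower gene was Ccl17, a ligand of CCR4 made by dendritic cells, at 6.70 and 3.13 against 17.6 and 12.1 FPKM. Of 10 dendritic cell genes, 5 were higher and 1 lower (29.3% and 23.5% of all genes tested), with a median of 0.34. Of 3 mast cell and basophil genes, 1 was higher and 1 lower, with a median of 0.02. Red cell genes were higher in 5 of 7 and lower in none (29.3% and 23.5% of all genes tested), with a median of 0.54. Alas2, the first enzyme of heme synthesis in red cell precursors, was at 37.2 and 26.8 against 19.1 and 19.3 FPKM. Summed over the erythroid list, FPKM were 5660 and 4123 against 3448 and 3639. The part of the red cell genes and of the leukocyte genes in the interferon and MHC differences was not tested.

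**Figure D5:**
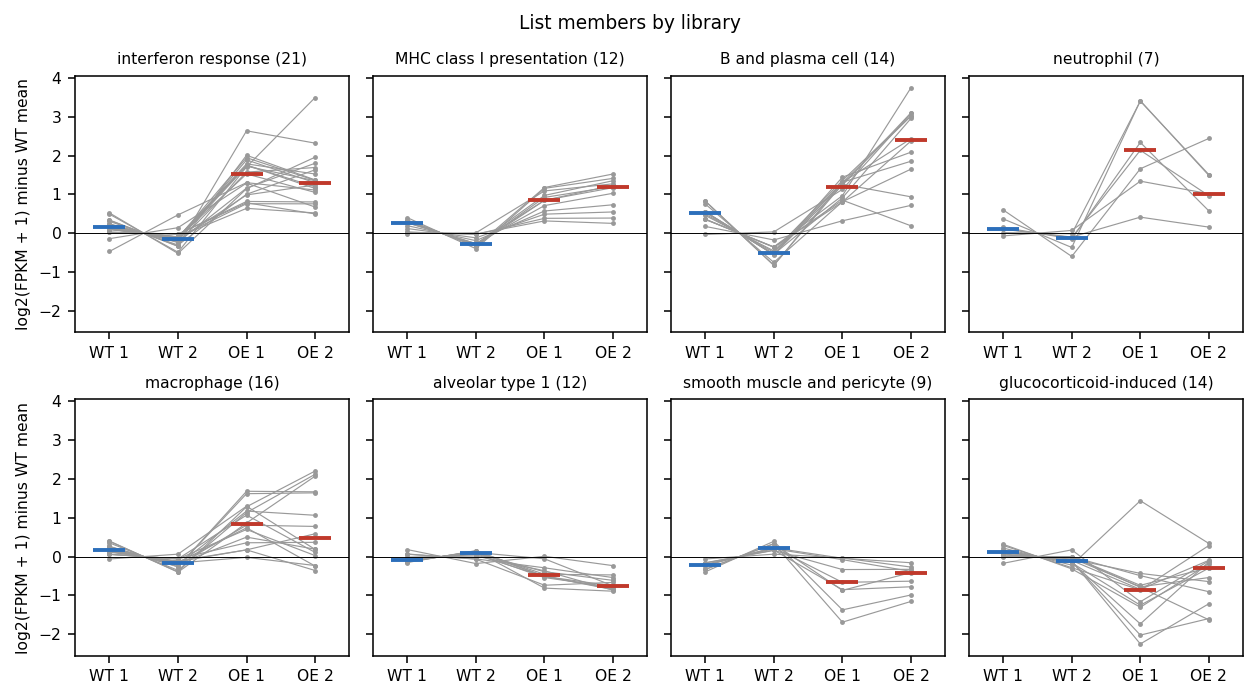
Members of 8 gene lists in each of the 4 lungs, as log2(FPKM + 1) minus the mean of the WT lungs. Gray lines join the values of 1 gene and colored bars are list medians; lines show no order between libraries. The neutrophil median is highest in OE normal lung 1 and the B cell median in OE normal lung 2, while the alveolar type 1 median lies below 0 in both.

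Genes of alveolar type 1 cells, which form the gas exchange surface, were lower in OE normal lung. Of 12 tested, 10 were lower and none higher (23.5% and 29.3% of all genes tested), with a median log2 difference of -0.62. An unadjusted p under 0.05 was found for 10 (7.39% of all genes tested were lower at that level). Hopx, a homeodomain protein of these cells, was at 354 and 335 FPKM in the OE normal lungs, against 563 and 686 FPKM in the WT lungs (log2 difference -0.85, SE 0.14, limma adjusted p = 0.126). Rtkn2, used as a marker of these cells, was at 28.4 and 30.0 against 50.4 and 45.9 FPKM. Ager was at 920 and 774 against 1269 and 1414 FPKM, and the water channel gene Aqp5 at 124 and 96.9 against 162 and 191 FPKM. Pdpn overlapped, at 55.6 and 46.9 against 62.9 and 48.7 FPKM. The list median was -0.48 without OE normal lung 2 and -0.76 without OE normal lung 1. None of the 12 alveolar type 2 genes separated the groups, and their median was -0.08. In that list the replicates themselves differed in 1 direction: OE normal lung 1 was above OE normal lung 2, and WT lung 1 above WT lung 2, in all 12. Of 10 lung lineage regulator genes, with a median of 0.04, 7 overlapped. The others were 2 lower and 1 higher (23.5% and 29.3% of all genes tested). Among them Nkx2-1, the transcription factor that maintains lung epithelial identity, was at 63.8 and 55.8 against 85.0 and 89.4 FPKM, and Id2, an inhibitor of helix-loop-helix factors, was at 68.2 and 44.1 against 39.5 and 37.5 FPKM.

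Smooth muscle and pericyte genes were lower in 6 of 9 (23.5% of all genes tested), with a median log2 difference of -0.64. Tagln, an actin-binding protein of smooth muscle, was at 81.3 and 85.7 FPKM in the OE normal lungs, against 131 and 166 FPKM in the WT lungs, and Cnn1 was at 16.2 and 23.9 against 43.0 and 68.8 FPKM. WT lung 2 had the higher value in all 9, and without it the median was -0.31. Myh11, the smooth muscle myosin heavy chain, overlapped at 31.3 and 28.8 against 27.5 and 37.9 FPKM. Of 15 fibroblast and matrix genes, 5 were lower and 2 higher (23.5% and 29.3% of all genes tested), and the median was -0.04. The member with the lowest difference was elastin (Eln), at 28.0 and 23.6 against 49.1 and 58.0 FPKM. Endothelial genes went both ways, 8 of 17 lower and 3 higher, beside 23.5% and 29.3% of all genes tested. Vwf, the clotting factor carrier of large-vessel endothelium, was at 85.0 and 88.1 against 56.7 and 57.8 FPKM. Ednrb, an endothelin receptor, was at 12.2 and 15.2 against 22.9 and 28.7 FPKM, and the general marker Pecam1 overlapped at 216 and 179 against 195 and 216 FPKM.

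Genes induced by glucocorticoid hormones through the glucocorticoid receptor were lower in 8 of 14 and higher in 1 (23.5% and 29.3% of all genes tested). Their median log2 difference was -0.68. Zbtb16, a zinc finger factor strongly induced by the hormone, was at 12.8 and 17.6 FPKM in the OE normal lungs, against 60.3 and 50.4 FPKM in the WT lungs, 3.64-fold lower (log2 difference -1.81, SE 0.19, limma adjusted p = 0.121). Fkbp5, a chaperone that limits receptor activity, was at 8.34 and 18.1 against 47.0 and 40.1 FPKM, and Klf9 at 32.1 and 38.0 against 57.3 and 54.2 FPKM. Tsc22d3, which encodes GILZ, was low in OE normal lung 1 only, at 89.7 and 274 against 334 and 271 FPKM. The 1 higher gene was Lcn2, which neutrophils and inflamed epithelium also express, at 143 and 66.0 against 60.8 and 44.6 FPKM. The list median was -0.29 without OE normal lung 1 and -0.85 without OE normal lung 2.

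Genes that the literature reports as repressed by EZH2 were lower in 11 of 20 and higher in 3 (23.5% and 29.3% of all genes tested), with a median log2 difference of -0.37. The median was -0.21 without OE normal lung 2 and -0.27 without OE normal lung 1. Cdkn1c, an inhibitor of cyclin-dependent kinases, was at 10.4 and 11.1 FPKM in the OE normal lungs, against 18.8 and 19.3 FPKM in the WT lungs (log2 difference -0.77, SE 0.08, limma adjusted p = 0.121). Runx3 was higher, at 3.66 and 5.16 against 2.24 and 1.19 FPKM, and is also expressed in T and NK cells. Alveolar type 1 and smooth muscle genes were lower as lists (medians -0.62 and -0.64). The part of cell composition in the higher or the lower genes was not tested. Cdkn2a, the tumor suppressor locus held silent by Polycomb, overlapped between the groups at 2.30 and 4.05 against 2.07 and 3.87 FPKM.

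Of 42 developmental transcription factor genes known as PRC2 targets, 25 passed the minimum level, and 9 of these were lower and 4 higher, with a median of -0.11, where 23.5% and 29.3% of all genes were lower and higher. After rescaling to TPM, 5 of the 25 were lower, and fewer of all genes tested were lower as well (counts below). Hoxb5 was at 6.46 and 5.73 FPKM in the OE normal lungs, against 8.62 and 10.8 FPKM in the WT lungs, and Tbx3 at 20.3 and 19.6 against 26.0 and 32.6 FPKM. Both are expressed in lung mesenchyme. The median was 0.03 without OE normal lung 2 and -0.24 without OE normal lung 1. Of 31 cell cycle genes, 20 were higher and 1 lower (29.3% and 23.5% of all genes tested), with a median of 0.40. An unadjusted p under 0.05 was found for 4, all higher, where 10.6% of all genes tested were higher at that level. Mcm2, a subunit of the replicative helicase, was at 5.93 and 5.63 against 4.28 and 3.76 FPKM, and Tk1, thymidine kinase, at 6.38 and 6.05 against 3.70 and 1.85 FPKM. WT lung 2 was the lower WT lung in 29 of the 31, and without it the median was 0.15.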

How the data were processed

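The authors deposited 1 file per library with 22474 rows of gene symbol and FPKM, and the submitters' processing notes name TopHat2, TopHat, Cufflinks 2.0.0 and the genome build mm9. The sources used here give no annotation, strand setting or read totals, so depth is known only in relative terms. In each file 27 rows with a date in place of a symbol were left out, which left 22447 genes. Groups were taken from the titles. On log2(FPKM + 1), 13588 genes reached 1 FPKM in 2 or more of the 4 lungs and entered limma 3.58.1 under R 4.3.3, with moderated variances that follow the mean level, 2-sided tests and a Benjamini-Hochberg threshold of 0.05. The spread came from these 4 libraries only.

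The comparison and the gene lists were chosen with earlier results of these data known. Of 48 lists, 43 had at least 5 members tested. Named genes were Ezh2, up to 12 called genes in each direction, enough of the genes with the smallest unadjusted p to reach 10 in each direction, and for each list the 2 members with the smallest p, all with non-overlapping groups where called or filled and a higher group mean of at least 5 FPKM, together with cell type markers. Some genes that this rule named are not reported here. Other genes were named after their values were seen. Over all 13588 genes, same-numbered replicates did not deviate together (correlation -0.01). In some lists they did, as in the 12 alveolar type 2 genes and the 14 heart muscle genes. B and plasma cell genes went opposite ways. The main fit did not pair the samples, and whether same-numbered samples share a source was not tested. Promoters came from RefSeq (GRCm38.p6) and were scanned on both strands in Python 3.11.15 with pandas 2.3.3, and figures were drawn with matplotlib 3.10.9. The procedure was tested on simulated data. Alternatives changed the scale (pseudocount 0.1, TPM, quantile or median-of-ratios values), the filter (none, or 5 FPKM), the variance model, or the libraries (all 7, each of the 4 left out, a replicate block), or left out small RNA genes. Leaving out small RNA genes together with another setting was chosen after the data were seen.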

Additional observations from a re-analysis of the deposited data

How the results depend on the processing

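With 2 libraries a group, the number of libraries limits every statement here, and depth is known only in relative terms. No gene outside the small RNA genes passed an adjusted p of 0.05 in limma under any alternative with all 4 lungs, and 2443 genes had an unadjusted p under 0.05. With 1 library left out, the count outside the small RNA genes was 0 to 2: Eif2s3y and Ddx3y without OE normal lung 1, and S100a8 without OE normal lung 2. Calls higher ranged from 0 to 4 and calls lower from 2 to 3 with 1 library left out. There were 0 calls higher and 0 lower with no filter, with all 7 libraries in the fit, and without small RNA genes, alone or with no mean-variance trend or median-of-ratios scaling, while a pseudocount of 0.1 gave 2 higher. Ezh2 stayed above the threshold for adjusted p, at 0.0927 to 0.440 over the alternatives. The count at an unadjusted p under 0.05 was 1224 with all 7 libraries in the fit, 2093 with a replicate block, and 1047 to 2812 with 1 library left out, the fewest without WT lung 2. The replicate block changed no call.

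Rescaling to TPM moved the median of all genes from 0.02 to 0.15, beside the smaller share of small RNA genes in the OE normal lungs. Genes higher and lower without overlap were 3980 and 3198 as reported and 6538 and 1439 with TPM. Of 9792 genes tested with a filter at 5 FPKM, 2584 were higher. Median-of-ratios scaling gave 3610 and 3593 genes higher and lower, and quantile normalization 2899 and 4239. With 1 library left out they were 5223 to 6078 and 4397 to 5110. Under TPM the list medians were -0.49 for alveolar type 1, 1.73 for interferon response and 1.26 for T and NK cell genes. Developmental PRC2 targets had a TPM median of 0.0059 with 5 of 25 lower, and PRC2 subunits 0.19 with 8 of 11 higher. Of 20 genes reported as repressed by EZH2, 7 were lower under TPM. Of all 13588 genes tested, TPM left 6538 higher and 1439 lower. Developmental PRC2 targets had a median of 0.031 with no filter, -0.21 with a filter at 5 FPKM and -0.21 with quantile normalization. The filter at 5 FPKM left 10 cell cycle genes tested, 7 of them higher, and 4 neutrophil genes, all higher (median 2.25). Quantile normalization gave 11 cell cycle genes and 2 PRC2 subunits higher, and a pseudocount of 0.1 gave a T and NK cell median of 1.36.

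With 1 library left out, list medians were 0.72 to 1.81 for adipocyte, -0.76 to -0.48 for alveolar type 1, -0.24 to 0.027 for developmental PRC2 targets (9 to 17 lower), -0.85 to -0.29 for glucocorticoid-induced genes (8 to 13 lower), 0.71 to 1.24 for MHC class I presentation and 0.75 to 1.27 for T and NK cell genes, and 4 to 9 PRC2 subunits were higher. A count of genes higher or lower without overlap can only stay the same or rise when a library is left out. Genes whose groups overlap changed sign. With 1 library left out, log2 differences ran from -0.25 to 0.41 for Cdkn2a, -0.41 to 0.15 for Cyp2f2, -0.078 to 0.12 for Eed, -0.15 to 0.35 for Foxj1, -0.33 to 0.12 for Myh11, -0.29 to 0.067 for Pdpn, -0.20 to 0.077 for Pecam1 and -0.018 to 0.15 for Suz12. Under TPM they were 0.0030 for Cyp2f2, 0.055 for Ezh1, 0.029 for Myh11, 0.018 for Pdpn and 0.074 for Pecam1. Under quantile normalization they were -0.070 for Cdkn2a, -0.028 for Eed and 0.017 for Pecam1. Median-of-ratios scaling gave -0.0023 for Eed, also without small RNA genes. The cause of these changes was not tested.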

Other observations

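Adipocyte genes were higher in OE normal lung in 6 of 8 tested (29.3% of all genes tested), with a median log2 difference of 1.38. Adipoq, the fat cell hormone adiponectin, was at 12.3 and 6.96 FPKM in the OE normal lungs, against 2.03 and 1.90 FPKM in the WT lungs. Fabp4, a fatty acid carrier that adipocytes, macrophages and endothelium express, was at 104 and 56.8 against 23.4 and 26.8 FPKM. OE normal lung 1 was higher than OE normal lung 2 in 7 of the 8 genes. Of 14 heart muscle genes, which lung samples carry through pulmonary vein muscle, 1 separated the groups. Nppa, which encodes atrial natriuretic peptide, was at 24.8 and 106 FPKM in the OE normal lungs, against 2.84 and 5.39 FPKM in the WT lungs. OE normal lung 2 and WT lung 2 were the higher library of their group in all 14.

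Of 11 club and secretory genes, 5 were higher and 5 lower (29.3% and 23.5% of all genes tested), with a median of -0.13. Bpifa1, an antimicrobial protein of upper airway epithelium, was at 449 and 216 FPKM in the OE normal lungs, against 90.5 and 20.1 FPKM in the WT lungs. The gel-forming mucin gene Muc5b was at 7.17 and 8.94 against 4.24 and 4.10 FPKM. The secretoglobin gene Scgb3a2 was lower, at 544 and 664 against 1056 and 797 FPKM. Of 14 ciliated cell genes, 2 were higher and 1 was lower (29.3% and 23.5% of all genes tested). The other 11 overlapped, and the list median was 0.06. The lower one was Tppp3, a tubulin-binding protein of ciliated cells, at 239 and 240 against 346 and 370 FPKM. Tmem212 was higher, at 49.0 and 60.1 against 47.5 and 43.2 FPKM, while the ciliated cell regulator gene Foxj1 overlapped at 33.5 and 47.7 against 32.8 and 42.3 FPKM. Among 16 clock genes 5 were lower and 2 higher, beside 23.5% and 29.3% of all genes tested, with a median of -0.10. Cry2, a repressor of the clock, was at 22.3 and 22.9 against 32.9 and 32.1 FPKM, and Bhlhe41 at 12.3 and 16.1 against 6.96 and 7.07 FPKM. Among 14 genes of ERK output 7 were lower and 1 higher (23.5% and 29.3% of all genes tested), with a median of -0.22. The feedback inhibitor gene Spry2 was at 13.1 and 11.6 against 18.3 and 20.1 FPKM. None of these genes passed an adjusted p of 0.05 in limma.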
